A study of Mus musculus with 6 samples.

Results

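Cadherins, guidance receptors and receptor-type protein tyrosine phosphatases are described here as the cell-surface and guidance genes of mouse mural granulosa cells that made at least 1 circular RNA (circRNA). The members were the junctions typed circRNA by the authors whose gene name begins with the name of an Eph receptor, a semaphorin, a plexin, a neuropilin, a Robo or Unc5 receptor, a cadherin (Cdh, Pcdh or Fat) or a receptor phosphatase (Ptpr), other than Epha5. They came to 367 of the 42381 circRNA (0.866%) and to 49 of 7867 gene names. By family, there were 15 circRNA of 6 Eph receptors, 92 of 10 semaphorins, 52 of 6 plexins, 1 of 1 neuropilin, 29 of 2 Robo receptors, 10 of 2 Unc5 receptors, 11 of 5 Cdh cadherins, 6 of 3 protocadherins, 8 of Fat1 and 143 of 13 receptor phosphatases.

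Libraries were made from the mural granulosa cells (the steroid-making cells along the follicle wall) of 6 wild-type CF-1 mice, 1 library per mouse. All mice received 5 IU of PMSG (equine chorionic gonadotropin), which makes follicles grow, at 21 days of age. The 4-h post-hCG group (3 mice) was then given hCG, a human placental hormone that stimulates the LH receptor as the ovulatory LH surge does, 46 h later and was sampled after a further 4 h, and the 0-h group (3 mice) was sampled at 46 h with no hCG. For each junction the authors gave the back-splice reads, which cross the point where the end of an exon is joined backwards to the start of the same or an earlier exon, and a linear count of the same host RNA.

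Cadherins hold neighbouring cells together through calcium-dependent contacts and are tied to actin by the catenins. Eph, plexin, Robo and Unc5 proteins are receptors that read ephrins, semaphorins, Slits and netrins and turn them into changes of adhesion and of the actin skeleton, best known from growing axons and vessels. Receptor phosphatases carry adhesion-molecule-like outer parts and, in most cases, remove phosphate from tyrosines inside the cell. A circRNA is a closed loop of exons, usually coding ones, and is as a rule more stable than the linear RNA of its gene.

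The sequence across the back splice is what distinguishes a circRNA from its linear host, so it is shown for the member circRNA with the most reads of each leading gene and for the single-exon circles of both Robo receptors. Each line reads 5′ to 3′ on the strand of the gene (GRCm38), with the last 30 bases of the last exon in lower case and the first 30 bases of the first exon in capitals.
Robo1 exons 4 to 6, chr16:72933213-72935786, plus strand: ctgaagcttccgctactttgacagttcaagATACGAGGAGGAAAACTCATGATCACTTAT
Robo1 exon 2, chr16:72742126-72742452, plus strand: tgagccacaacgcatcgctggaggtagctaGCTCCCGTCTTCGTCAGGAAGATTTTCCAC
Robo2 exon 2, chr16:74352551-74352877, minus strand: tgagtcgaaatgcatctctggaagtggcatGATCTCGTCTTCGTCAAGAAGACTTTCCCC
Sema3c exons 10 to 11, chr5:17678312-17682083, plus strand: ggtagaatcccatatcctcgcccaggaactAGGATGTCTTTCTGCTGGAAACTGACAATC
Plxnc1 exons 2 to 4, chr10:94906465-94922770, minus strand: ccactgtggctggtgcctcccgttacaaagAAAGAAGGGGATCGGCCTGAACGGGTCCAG
Sema5a exons 10 to 11, chr15:32568712-32575020, plus strand: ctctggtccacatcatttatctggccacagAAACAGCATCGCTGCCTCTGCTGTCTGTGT

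Robo1 and Robo2 each made a circle from exon 2 alone (exon 2 of 29 in the annotated transcript of each), which lies in the coding sequence. Both circles are 327 nt long, and 252 positions are identical between them (77.1%). The first 300 bases of each exon (234 identical) are shown so that the likeness can be seen, with the positions that differ in capitals.
Robo1 exon 2, chr16:72742126-72742425, plus strand: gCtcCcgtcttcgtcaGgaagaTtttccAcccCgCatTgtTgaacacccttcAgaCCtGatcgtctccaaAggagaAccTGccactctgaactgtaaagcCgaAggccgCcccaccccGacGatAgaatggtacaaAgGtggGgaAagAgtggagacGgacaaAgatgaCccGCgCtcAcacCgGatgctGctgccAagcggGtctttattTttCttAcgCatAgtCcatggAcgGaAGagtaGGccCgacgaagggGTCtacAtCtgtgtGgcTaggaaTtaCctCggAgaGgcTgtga
Robo2 exon 2, chr16:74352578-74352877, minus strand: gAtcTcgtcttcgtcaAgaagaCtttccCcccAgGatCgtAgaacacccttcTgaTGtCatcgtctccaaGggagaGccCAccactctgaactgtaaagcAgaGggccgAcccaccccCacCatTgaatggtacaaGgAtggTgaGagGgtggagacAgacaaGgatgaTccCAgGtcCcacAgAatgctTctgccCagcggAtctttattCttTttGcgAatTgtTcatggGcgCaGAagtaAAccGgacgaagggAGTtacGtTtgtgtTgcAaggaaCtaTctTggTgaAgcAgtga
The Robo1 circle had 19, 18 and 15 back-splice reads in the 4-h post-hCG libraries and 10, 7 and 5 in the 0-h libraries. The Robo2 circle had 5, 6 and 2 reads at 4-h post-hCG and 4, 0 and 0 at 0-h.

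Member circRNA were a thin slice of the circular reads, so most statements below rest on few reads. Their reads came to 503, 527 and 572 per library at 4-h post-hCG (lowest, median and highest) and to 457, 529 and 565 at 0-h, or 0.636% to 0.755% of all circRNA reads at 4-h post-hCG and 0.598% to 0.692% at 0-h. All circRNA together had 66593 to 89982 reads per library at 4-h post-hCG and 65994 to 91854 at 0-h. Of the 367 circRNA, 125 (34.1%) were seen by 1 read in all 6 libraries together, against 30.6% of all circRNA, and 23 (6.27%) were present in every library, against 7.68% of all circRNA. The reads were concentrated in 4 genes: Robo1 (585 reads), Plxnc1 (557), Sema5a (516) and Sema3c (419) held 2077 of 3153 reads (65.9%). At the other end, 26 genes had fewer than 10 reads and 16 made a single circRNA. The receptor phosphatases had many circRNA with few reads each: Ptprd made 53 circRNA with 280 reads and Ptprg 21 with 128 reads.

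The labelled cell type and treatment could be checked only in part, since a gene has a linear count only where it has a circRNA. Of 10 measured granulosa markers, 1 was higher (Inhba) and 5 were lower (Hsd17b1, Fshr, Esr2, Cyp19a1 and Gata4) at 4-h post-hCG. All 10 measured genes of a list of 15 hCG-responsive genes were higher, and Ptgs2, Ereg, Btc, Rgs2 and Star had no linear count. Some of the 10 were near 0 at 0-h, such as Has2 (0 linear counts in each 0-h library). Such genes could hardly enter except through the 4-h post-hCG libraries, where they are high. Others, such as Vcan (929, 1126 and 860 counts), were well measured at 0-h. The 10 are therefore a description and not a test of the treatment. For comparison, 12.8% of all genes tested were called higher and 12.4% lower, or 25.2% in either direction. Of the endothelial, leukocyte, theca and stroma, and oocyte markers, 1, 3, 3 and 2 were tested (too few to judge) and 0 were called. Their summed linear levels overlapped between the groups: 18.2 to 38.3 CPM (reads or counts scaled to a common library size) at 4-h post-hCG against 16.8 to 31.9 at 0-h for endothelial markers, 25.0 to 29.8 against 27.0 to 47.9 for leukocyte markers, 1189 to 1423 against 1092 to 1815 for theca and stroma markers, and 75.0 to 104 against 86.4 to 92.8 for oocyte markers. Of the endothelial markers, Flt1, Tek, Emcn, Vwf and Ptprb were below the filter on low counts. The part of other cell types in the changes below was not tested.

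In structure, all 367 circRNA began and ended at annotated exon ends. So did 1657 of the 1658 abundant circRNA of all genes, so this is not particular to the members. They held a median of 4 exons (1 to 22) and 687 nt after splicing (97 to 5130), and the exons and introns between their ends spanned a median of 18401 bp of genome. The 12 abundant members had medians of 376.5 nt and 9053.5 bp, against 520 nt and 8198 bp for the 1657 abundant circRNA of all genes that matched a transcript. Single-exon circles were 21 of the 367 (5.72%), against 3.70% of all circRNA. Exon 2, the first exon that can be back-spliced, began 59 (16.1%) of the member circRNA, and 3 of the 12 abundant members (25.0%), against 38.0% of all abundant circRNA. Coding sequence only made up 336 (91.6%) of the member circles, and all 12 of the abundant members, against 77.2% of all abundant circRNA. The intron before the circle had a median length of 12283 bp in members and 22289 bp in the 12 abundant members, against 11685 bp in all abundant circRNA. These shares are descriptions, and the all-gene values are of abundant circRNA unless said otherwise.

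Between the time points, no single member circRNA was called. The test was edgeR's quasi-likelihood test over the 1658 abundant circRNA (100 CPM or more of circRNA reads in 3 or more libraries), where a feature was called if its Benjamini-Hochberg adjusted p did not exceed 0.1 and its fold change reached 1.5 in either direction. It took in 12 member circRNA, of which 0 were called, where 1.21% of all abundant circRNA were. DESeq2 also called 0. The unadjusted p was under 0.05 for 2 of the 12, against 6.82% of all. The median log2 fold change was 0.13 for the members and 0.03 for all. The levels given next are back-splice CPM of TMM-scaled libraries counted over all junctions that name a gene.

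Robo1, a receptor for the Slit proteins, made the circRNA with the most reads, from exons 4 to 6. It had 476.0, 523.0 and 548.0 CPM at 4-h post-hCG and 425.0, 479.0 and 485.0 CPM at 0-h. The groups overlapped, and the log2 fold change was 0.16 (SE 0.262, edgeR adjusted p = 0.991). The Robo1 exon 2 circle had 121.0, 131.0 and 126.0 CPM at 4-h post-hCG and 61.5, 41.4 and 41.1 CPM at 0-h. Its groups did not overlap, but with 74 reads in all, the log2 fold change of 1.37 (SE 0.547) had an unadjusted p of 0.0142 and an edgeR adjusted p of 0.482, so it was not called.

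Sema3c, a secreted semaphorin, made its main circRNA from exons 10 to 11. It had 399.9, 451.0 and 489.0 CPM at 4-h post-hCG and 172.0, 272.0 and 329.0 CPM at 0-h. Every 4-h post-hCG library lay above every 0-h library, and the log2 fold change was 0.80 (SE 0.303, unadjusted p = 0.00962, edgeR adjusted p = 0.396), which was not called. A longer Sema3c circRNA (exons 12 to 17, chr5:17694643-17724211) had a log2 fold change of 0.37 (SE 0.738).

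The circRNA of Plxnc1, a plexin that binds semaphorin 7A, showed no change that the test could detect. The leading one, from exons 2 to 4, had 152.0, 239.9 and 261.0 CPM at 4-h post-hCG and 215.0, 159.6 and 230.2 CPM at 0-h (log2 fold change 0.11, SE 0.362). The log2 fold changes of the other abundant Plxnc1 circRNA were -0.03 for exons 5 to 9, -0.06 for exons 7 to 9 and 0.22 for exons 22 to 23. Sema5a, a transmembrane semaphorin, had a leading circRNA from exons 10 to 11 at 50.8, 174.0 and 126.0 CPM at 4-h post-hCG and 209.0, 130.1 and 148.0 CPM at 0-h (log2 fold change -0.49, SE 0.433). The log2 fold changes of its other abundant circRNA were -0.08 for exons 6 to 8 and 0.84 for exons 12 to 16, with standard errors of 0.577 and 0.656. The circRNA of exons 2 to 4 of Unc5c, a netrin receptor, had 0, 2 and 13 reads at 4-h post-hCG and 10, 15 and 5 at 0-h, with overlapping groups (log2 fold change -0.72, SE 0.808).

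**Figure D1:**
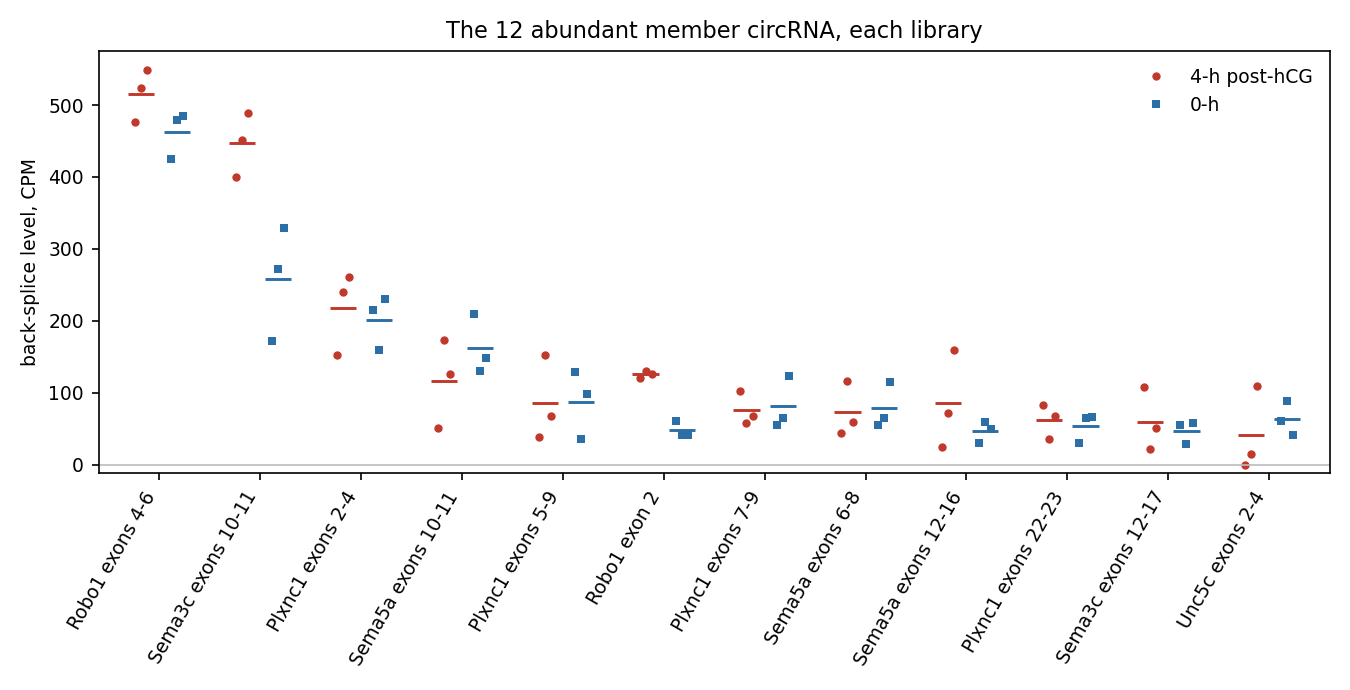
Back-splice level (CPM, vertical axis) of the 12 abundant member circRNA in each library, red circles for 4-h post-hCG and blue squares for 0-h, with a line at the mean of the 3 mice. The groups do not overlap for Sema3c exons 10 to 11 (399.9 to 489.0 CPM at 4-h post-hCG and 172.0 to 329.0 CPM at 0-h) and Robo1 exon 2, and overlap for the other 10.

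Summing all circRNA of a gene gives more reads per value, and 6 member genes then passed the filter on low counts. Sema3c was called and the other 5 were not, where 1.53% of all genes were called and 1.41% were called higher. Sema3c had 99, 83 and 82 summed back-splice reads at 4-h post-hCG and 45, 58 and 52 at 0-h, or 629.7 ± 47.0 CPM at 4-h post-hCG and 356 ± 77.4 CPM at 0-h (SD, n = 3 each). All 4-h post-hCG libraries were above all 0-h libraries, with a log2 fold change of 0.83 (SE 0.254, edgeR adjusted p = 0.0772). The call was close to its limit: DESeq2 gave an adjusted p of 0.158, and the edgeR call was lost without 4-h post-hCG replicate 1 (adjusted p = 0.114) or 3 (0.372) and without 0-h replicate 1 (0.647), 2 (0.402) or 3 (0.114), with log2 fold changes of 0.68 to 1.01.

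Of the other 5 genes, all but Robo1 had summed circular levels that overlapped between the groups. Robo1 had 692, 729 and 809 CPM at 4-h post-hCG and 549.9, 651 and 654 CPM at 0-h, which did not overlap, but it was not called (edgeR adjusted p = 0.875). Its means were 743 ± 59.6 CPM at 4-h post-hCG and 618 ± 59.1 CPM at 0-h (SD, n = 3 each, log2 fold change 0.26, SE 0.222). Plxnc1 had 649 ± 44.9 CPM at 4-h post-hCG and 657 ± 159 CPM at 0-h (log2 fold change -0.01, SE 0.228). For Sema5a the log2 fold change was -0.05 (SE 0.235), for Ptprd, a receptor phosphatase of the LAR family, -0.19 (SE 0.290), and for Ptprg, one with a carbonic-anhydrase-like outer part, -0.36 (SE 0.405).

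The linear RNA of these genes was called in both directions. Of the 49 genes, 40 passed the filter on low linear counts, and 17 of them were called (42.5%), where 25.2% of all genes were. At 4-h post-hCG, 10 members were higher (25.0% of those tested, against 12.8% of all genes) and 7 were lower (17.5%, against 12.4%). The median log2 fold change was -0.01 in the members and 0.0039 in all genes. The largest increases were 4.74 for Pcdh10, 4.63 for Ptprn and 4.26 for Robo2 on the log2 scale, and the largest decrease was -1.85 for Sema7a. The 9 genes below the filter were Cdh9, Cdh17, Cdh19, Ephb1, Ephb2, Pcdh11x, Pcdh15, Ptprb and Ptpru. With no filter, Cdh17 (15, 10 and 5 counts at 4-h post-hCG and 1, 1 and 2 at 0-h) and Pcdh11x (9, 0 and 3 counts at 4-h post-hCG and 0 in each 0-h library) were called higher as well. A gene had a linear count in the files only where at least 1 circRNA read was found, so some genes entered through the libraries of 1 group. Of the 10 higher members, 4 (Epha4, Pcdh10, Ptprn and Sema3d) had circular reads only at 4-h post-hCG, against 17.3% of all genes called higher. Of the 7 lower members, 2 (Sema3g and Sema6c) had them only at 0-h, against 15.9% of all genes called lower. The counts of called members are therefore a description. Less RNA per cell and fewer cells that make it cannot be told apart in these libraries of many cells.

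**Figure D2:**
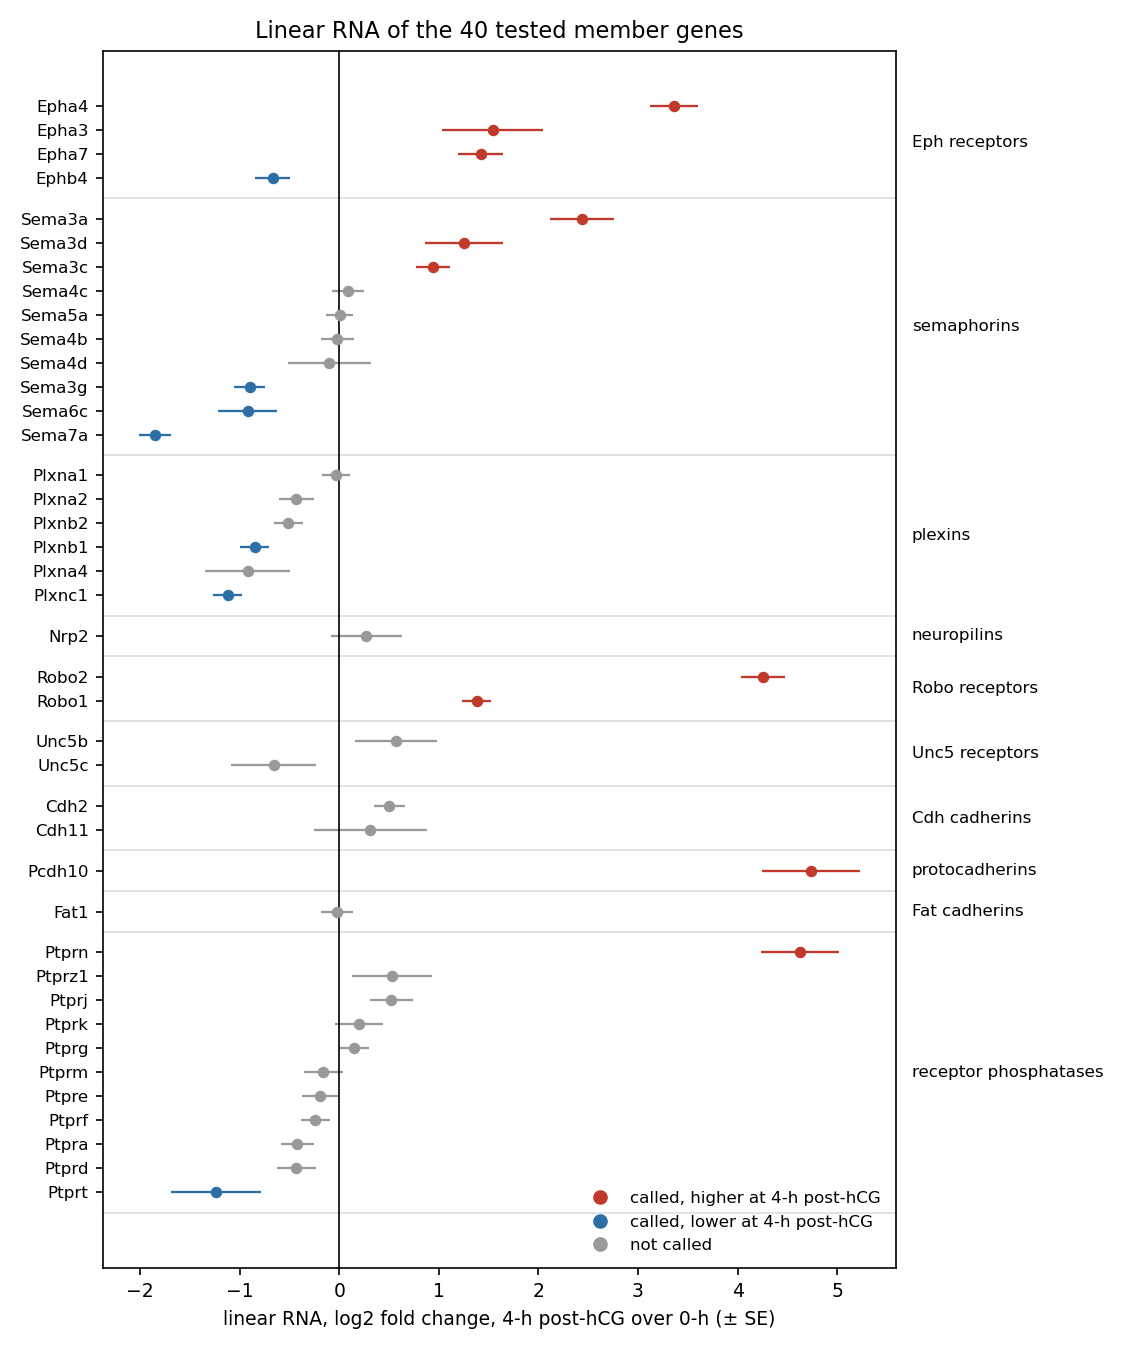
Log2 fold change of linear RNA, 4-h post-hCG over 0-h, with its standard error (horizontal axis) for the 40 tested member genes grouped by family, in red where called higher, blue where called lower and grey where not called. The 2 Robo receptors and 3 of 4 Eph receptors lie to the right of 0, and the 6 plexins at or to the left of it.

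Both Robo receptors, which bind Slits at their outer immunoglobulin domains, rose. Robo1 had linear counts of 1852, 1592 and 1196 at 4-h post-hCG and 532, 721 and 645 at 0-h. Its level was 1353 ± 65.8 CPM at 4-h post-hCG and 520.1 ± 69.8 CPM at 0-h (SD, n = 3 each), and the log2 fold change was 1.38 (SE 0.146, edgeR adjusted p = 2.11e-07). Robo2 had linear counts of 1130, 611 and 505 at 4-h post-hCG and 42, 51 and 30 at 0-h, groups that lay far apart. Its log2 fold change was 4.26 (SE 0.221, edgeR adjusted p = 1.94e-12), or 19.2-fold. The rise was seen at every junction of these genes that had at least 60 linear counts: 20 Robo1 junctions had log2 fold changes of 0.90 to 1.47 and 9 Robo2 junctions of 3.90 to 4.45, although junctions of a gene share reads.

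Of the Eph receptors, tyrosine kinases that bind ephrins on the next cell, 4 were tested. The 3 EphA receptors tested rose and 1 EphB receptor fell, where 12.8% of all genes were higher and 12.4% lower. Epha4 had 264, 170 and 175 linear counts at 4-h post-hCG and 18, 32 and 14 at 0-h. No library of one group reached the other, and the log2 fold change was 3.36 (SE 0.244, edgeR adjusted p = 4.40e-10). Epha7 had 132, 92 and 77 counts at 4-h post-hCG and 47, 37 and 35 at 0-h (log2 fold change 1.42, SE 0.226). Epha3 had fewer, with 29, 21 and 9 counts at 4-h post-hCG and 2, 11 and 8 at 0-h (log2 fold change 1.54, SE 0.511, edgeR adjusted p = 0.0295), and it was not called without 4-h post-hCG replicate 1 (adjusted p = 0.131) or without 0-h replicate 1 (adjusted p = 0.153). Ephb4, the EphB receptor best known for pairing with ephrin B2 between veins and arteries, had 102, 99 and 65 counts at 4-h post-hCG and 138, 160 and 150 at 0-h (log2 fold change -0.67, SE 0.176, edgeR adjusted p = 0.00696).

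The semaphorins moved in both directions, with 3 of 10 higher (12.8% of all genes) and 3 lower (12.4% of all genes). The ones that rose were secreted class 3 semaphorins, which signal through neuropilins and plexins. The class did not move as 1, since Sema3g, also of class 3, fell (log2 fold change -0.90). Sema3a, known for collapsing growth cones, had 81, 50 and 53 linear counts at 4-h post-hCG and 14, 13 and 9 at 0-h (log2 fold change 2.44, SE 0.319, edgeR adjusted p = 4.18e-06). Sema3d had 48, 22 and 22 counts at 4-h post-hCG and 16, 16 and 9 at 0-h (log2 fold change 1.25, SE 0.393), and its call was lost without 4-h post-hCG replicate 1 (log2 fold change 0.91, adjusted p = 0.162). Sema3c had 1820, 1098 and 988 counts at 4-h post-hCG and 654, 975 and 555 at 0-h (log2 fold change 0.94, SE 0.171, edgeR adjusted p = 2.46e-04). All 16 Sema3c junctions lay above 0 in linear fold change, from 0.90 to 1.09 on the log2 scale.

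The semaphorins that fell were Sema7a, which is anchored in the membrane by a lipid and binds plexin C1 and integrins, the secreted Sema3g and the transmembrane Sema6c. Sema7a had 1054, 1123 and 545 linear counts at 4-h post-hCG and 3186, 3832 and 3257 at 0-h, or 777 ± 146 CPM at 4-h post-hCG and 2813 ± 142 CPM at 0-h (SD, n = 3 each). The groups were well apart, with a log2 fold change of -1.85 (SE 0.158, edgeR adjusted p = 6.78e-09), and the 4 junctions of the gene gave -1.92 to -1.81. Sema3g had 677, 736 and 464 counts at 4-h post-hCG and 955, 1473 and 1288 at 0-h (log2 fold change -0.90, SE 0.155). Sema6c had 28, 26 and 14 counts at 4-h post-hCG and 47, 46 and 43 at 0-h (log2 fold change -0.92, SE 0.295). Sema5a, whose linear counts were 2173, 2088 and 1429 at 4-h post-hCG and 1940, 2345 and 1779 at 0-h, had a log2 fold change of 0.0029 (SE 0.136), with 26 of its 52 junctions above 0 and 26 below. The transmembrane Sema4b, Sema4c and Sema4d, class 4 semaphorins that act on plexin B receptors, were at -0.02, 0.09 and -0.10, and were not called.

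Of the plexins, the semaphorin receptors that act on small GTPases, 2 of 6 fell (12.4% of all genes) and 0 rose (12.8% of all genes). All 6 fitted values were below 0 (median -0.68), except that Plxna1 was at 0.02 without 0-h replicate 1. Plxnc1 had 648, 642 and 381 linear counts at 4-h post-hCG and 1225, 1570 and 1066 at 0-h. Its level was 482 ± 44.4 CPM at 4-h post-hCG and 1049 ± 90.3 CPM at 0-h (SD, n = 3 each), with a log2 fold change of -1.12 (SE 0.143, edgeR adjusted p = 3.18e-06). All 42 Plxnc1 junctions were below 0, from -1.28 to -0.99. Plxnb1, a receptor for Sema4d, had 455, 356 and 268 counts at 4-h post-hCG and 727, 659 and 670 at 0-h (log2 fold change -0.85, SE 0.149, edgeR adjusted p = 1.62e-04). Plxnb2 had a log2 fold change of -0.51 (SE 0.141, edgeR adjusted p = 0.0104), past the p limit but under the fold limit. Plxna1 (-0.03), Plxna2 (-0.43) and Plxna4 (-0.92, SE 0.425) were not called. The neuropilin Nrp2, the co-receptor of class 3 semaphorins, had 33, 20 and 33 counts at 4-h post-hCG and 29, 25 and 24 at 0-h, overlapping groups with a log2 fold change of 0.27 (SE 0.356).

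Among the cadherins, Pcdh10, a delta protocadherin, was the only one of 4 tested that was called, where 25.2% of all genes were. It had 55, 164 and 65 linear counts at 4-h post-hCG and 7, 3 and 1 at 0-h, groups that were well apart, with a log2 fold change of 4.74 (SE 0.490, edgeR adjusted p = 1.44e-07). Cdh2 (N-cadherin), a classical cadherin of granulosa cell contacts, had 467, 352 and 314 counts at 4-h post-hCG and 311, 334 and 218 at 0-h (log2 fold change 0.50, SE 0.156, edgeR adjusted p = 0.0209). It passed the p limit and missed the fold limit of 1.5 with 1.42-fold, and was called without 4-h post-hCG replicate 2 (log2 fold change 0.60) or without 0-h replicate 1 (0.59). Cdh11, with 2 to 14 counts per library, was at 0.31 (SE 0.567). Fat1, a very large atypical cadherin, had 3064, 2294 and 2367 counts at 4-h post-hCG and 2674, 2831 and 2943 at 0-h, overlapping groups with a log2 fold change of -0.02 (SE 0.159).

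Of the receptor phosphatases, 1 of 11 was higher and 1 lower, where 12.8% of all genes were higher and 12.4% lower. The median log2 fold change of the 11 was -0.16. The one that rose, Ptprn (IA-2), lies in the membrane of dense-core secretory vesicles and has no phosphatase activity of the usual kind. It had 132, 130 and 96 linear counts at 4-h post-hCG and 8, 0 and 7 at 0-h (log2 fold change 4.63, SE 0.392, edgeR adjusted p = 5.99e-09). Ptprt, a homophilic adhesion phosphatase, had 10, 17 and 6 counts at 4-h post-hCG and 28, 16 and 37 at 0-h. Its groups overlapped, its log2 fold change was -1.24 (SE 0.452, edgeR adjusted p = 0.0467), and the call was lost without 4-h post-hCG replicate 1 (adjusted p = 0.128) or 3 (0.140) and without 0-h replicate 1 (0.120) or 3 (0.264). The 4 uncalled phosphatases with the most linear counts were Ptprf at -0.24 (SE 0.143), Ptprd at -0.43 (SE 0.193), Ptprg at 0.15 (SE 0.149) and Ptpra at -0.42 (SE 0.166). All 53 Ptprd junctions lay below 0, from -0.75 to -0.15, and Ptprd was called lower without 4-h post-hCG replicate 2 (log2 fold change -0.67, adjusted p = 0.0114). The remaining 5, Ptpre, Ptprj, Ptprk, Ptprm and Ptprz1, were between -0.19 and 0.53. Of the Unc5 receptors, Unc5b was at 0.57 (SE 0.409) and Unc5c at -0.66 (SE 0.423), with 11 to 34 counts per library, and neither was called.

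**Figure D3:**
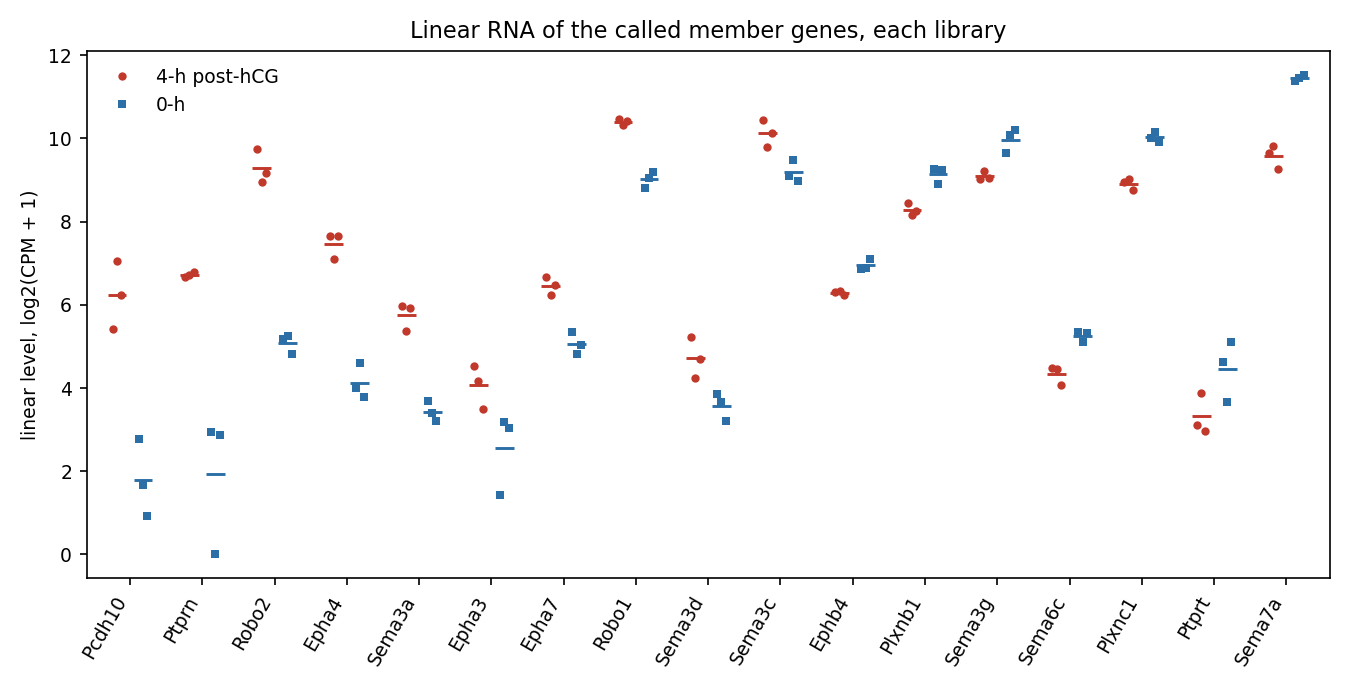
Linear level (log2 of CPM + 1, vertical axis) of the 17 called member genes in each library, red circles for 4-h post-hCG and blue squares for 0-h, ordered from the largest increase to the largest decrease, with a line at the mean. The libraries of the groups are apart for 16 genes and overlap for Ptprt (10, 17 and 6 counts at 4-h post-hCG and 28, 16 and 37 at 0-h).

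Whether circular reads moved differently from the linear count of the same gene was tested as an interaction over the 12 circular and linear columns. Of 37 member genes tested, 3 were called (8.11%), where 1.57% of all genes were. The filter on low counts could be passed on linear counts alone, so some tested genes had very few back-splice reads. Ephb4, for example, had 1 (change 4.98, SE 4.25), and for such genes a missing call says little. The ratio of circular to linear was higher at 4-h post-hCG for Plxnc1 (0.532% of all genes) and lower for Robo1 and Ptpra (1.03% of all genes). Levels are given as back-splice reads per 100 linear counts, with exact binomial 95% intervals that cover counting error only. Linear counts were additive in the ends of a junction, within 2 counts, in all 116 sets of 4 member circRNA that share their ends, so that the ratio is not a share of molecules.

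Robo1 had 6.10, 6.34 and 8.11 back-splice reads per 100 linear counts at 4-h post-hCG and 16.5, 15 and 12.1 at 0-h. All libraries of the groups were apart. Pooled, they were 6.70 (5.96 to 7.52) at 4-h post-hCG and 14.4 (12.7 to 16.4) at 0-h, and the change of the ratio was -1.09 on the log2 scale (SE 0.290, edgeR adjusted p = 0.0228). This went with linear counts that rose and summed circular reads for which no change was called, although their levels did not overlap (log2 fold change 0.26, SE 0.222). The gene's linear count was that of the junction of exons 2 to 3, whereas 421 of its 585 back-splice reads were from exons 4 to 6. Within the gene, the circRNA of exons 4 to 6 had 15.5 (13.4 to 17.9) reads per 100 linear counts of its own junction at 4-h post-hCG and 26.1 (22.3 to 30.5) at 0-h, while the exon 2 circle had 1.15 (0.857 to 1.51) at 4-h post-hCG and 1.21 (0.759 to 1.84) at 0-h; the difference between these circles was not tested. The call on the gene was lost without 4-h post-hCG replicate 1 (adjusted p = 0.11) and without 0-h replicate 1 (0.114) or 2 (0.151), with changes of -1.0, -1.06 and -1.02.

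Plxnc1 moved the other way, with 15.7, 13.4 and 22 back-splice reads per 100 linear counts at 4-h post-hCG and 8.65, 5.22 and 9.10 at 0-h. The groups did not overlap. Pooled, they were 16.3 (14.3 to 18.5) at 4-h post-hCG and 7.38 (6.52 to 8.33) at 0-h, and the change of the ratio was 1.13 (SE 0.294, edgeR adjusted p = 0.0192). Here the linear counts fell and the summed circular reads were at a log2 fold change of -0.01. The leading circRNA, from exons 2 to 4, had 6.41 (5.11 to 7.95) reads per 100 linear counts of its junction at 4-h post-hCG and 2.94 (2.36 to 3.63) at 0-h. Without 4-h post-hCG replicate 3 the gene's adjusted p was 0.174, and without 0-h replicate 2 it was 0.234, with changes of 0.99 and 0.93. Of the Plxnc1 circRNA, 7 also name 5S_rRNA in the authors' table.

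Ptpra, which activates Src family kinases by removing an inhibitory phosphate, had 0, 0 and 1 summed back-splice reads at 4-h post-hCG and 15, 2 and 5 at 0-h. This was 0.262 (0.00661 to 1.47) reads per 100 linear counts at 4-h post-hCG and 4.00 (2.49 to 6.12) at 0-h, a change of -3.88 (SE 1.20, edgeR adjusted p = 0.0890). Most of its 0-h reads came from replicate 1, without which the change was -2.86 and the adjusted p 0.511. Its call was also lost without 4-h post-hCG replicate 1 (adjusted p = 0.343), 2 (0.195) or 3 (0.109) and without 0-h replicate 3 (0.118).

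Of the uncalled genes, Robo2 had the change nearest to the limit. It had 1.15, 1.31 and 0.792 back-splice reads per 100 linear counts at 4-h post-hCG and 9.52, 1.96 and 10 at 0-h, from 25 reads at 4-h post-hCG and 8 at 0-h. The libraries did not overlap, and the change was -2.55 (SE 0.841, edgeR adjusted p = 0.117). It was called by DESeq2 (adjusted p = 0.0195), without 4-h post-hCG replicate 2 (0.0993) and without 0-h replicate 2 (0.0982). For Sema3c, whose circular and linear counts both rose, the change of the ratio was -0.09 (SE 0.307), and for Sema5a it was -0.03 (SE 0.283). For Ptprd it was 0.25 (SE 0.337) and for Ptprg -0.50 (SE 0.414).

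**Figure D4:**
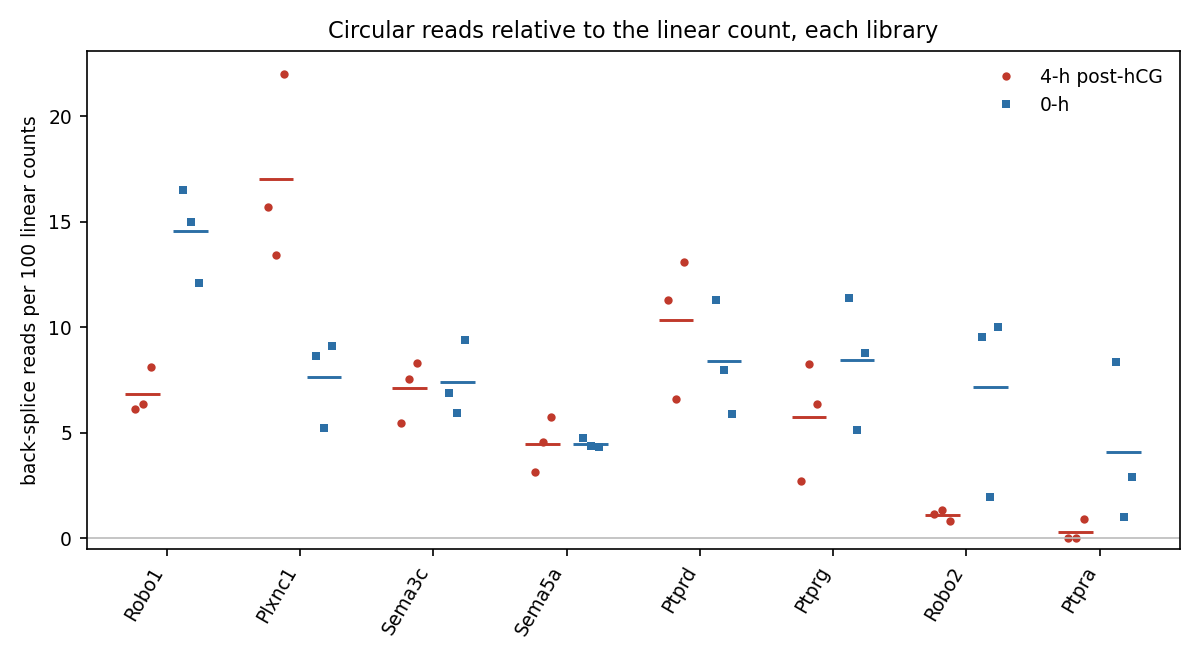
Summed back-splice reads per 100 linear counts (vertical axis) of 8 member genes in each library, red circles for 4-h post-hCG and blue squares for 0-h, with a line at the mean of the 3 mice. Robo1 lies lower at 4-h post-hCG (6.10 to 8.11) than at 0-h (12.1 to 16.5), Plxnc1 lies higher (13.4 to 22 against 5.22 to 9.10), and the groups of Sema3c, Sema5a, Ptprd and Ptprg overlap.

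The ligands and inner partners of these receptors were read from the same linear test, for the listed genes that have a circRNA. Of 8 ephrins, 2 were measured: Efnb2, the ligand of EphB4, had 283, 130 and 150 counts at 4-h post-hCG and 8, 3 and 6 at 0-h (log2 fold change 5.10, SE 0.348, edgeR adjusted p = 1.57e-10), and Efna5 was at -0.06. Of 7 tested Slits, netrins and co-receptors, 2 were higher and 1 lower, where 12.8% of all genes were higher and 12.4% lower. Slit2, a ligand of Robo1 and Robo2, had 44, 26 and 24 counts at 4-h post-hCG and 2, 5 and 9 at 0-h (log2 fold change 2.60, SE 0.484), Lrig3 was at 1.72 and the netrin Ntn4 at -0.94, while Slit3 was at -0.36 and was not called.

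Of 15 tested catenins and other cadherin partners, 2 were higher, Vcl (vinculin, 2.81 on the log2 scale) and Magi3 (1.47), and 1 was lower, Arvcf (-1.37). Beta-catenin (Ctnnb1, 0.15) and alpha-catenin (Ctnna1, 0.32) were not called. Of 36 tested cytoplasmic effectors of guidance signals, 11 were higher and 5 lower. The 4 largest increases were Arhgef12 (3.22), which binds plexin B receptors, Mical2 (2.52), an oxidase of actin, the Ras exchange factor Sos2 (2.00) and the Src family kinase Yes1 (1.88). Mical3 (-1.71) and the Slit-Robo GTPase-activating protein Srgap3 (-1.19) were among those that fell, whereas Srgap1 (1.46) rose. Of 10 tested partners of receptor phosphatases, 2 were higher, the glypican Gpc4 (1.43) and Trio (0.93), and 0 lower. Over all genes, 12.8% were higher and 12.4% lower.

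Because hCG raises cAMP in granulosa cells, promoters were searched for TGACGT, the core of the cAMP response element, on both strands. Promoters from 250 bases before to 50 bases after the start, from RefSeq (GRCm38.p6), matched 40 of the 49 genes. The letters were present in 3 of the 10 genes that rose (Epha4, Pcdh10 and Sema3d), in 0 of the 7 that fell and in 4 of 18 that were not called (Ptprg, Ptprk, Ptprm and Unc5c), against 8.37% of all genes with a promoter. They were also present in Ptpru, which was below the filter, making 8 of the 40 members. Epha4, Pcdh10 and Sema3d had circular reads only at 4-h post-hCG, so they entered the set through the group where they are high. The split by direction was not tested and cannot be read as a result. Epha4 and Pcdh10 are shown as the largest increases that hold them, 5′ to 3′ on the strand of the gene, with the letters (or their reverse complement) in capitals.
Epha4 promoter, chr1:77515039-77515338, minus strand: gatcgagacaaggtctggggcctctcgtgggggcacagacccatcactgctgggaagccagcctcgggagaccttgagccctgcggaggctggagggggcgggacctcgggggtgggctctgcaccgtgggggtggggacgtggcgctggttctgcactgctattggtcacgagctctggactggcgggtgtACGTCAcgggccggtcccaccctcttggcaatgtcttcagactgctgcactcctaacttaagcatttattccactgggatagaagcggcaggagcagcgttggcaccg
Pcdh10 promoter, chr3:45378148-45378447, plus strand: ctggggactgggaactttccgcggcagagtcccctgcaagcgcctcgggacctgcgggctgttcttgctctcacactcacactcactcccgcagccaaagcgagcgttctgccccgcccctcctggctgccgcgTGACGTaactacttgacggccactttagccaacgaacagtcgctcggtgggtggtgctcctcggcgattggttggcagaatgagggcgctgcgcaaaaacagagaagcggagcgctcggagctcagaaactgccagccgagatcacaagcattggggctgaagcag
A match of letters is a description and does not show that a factor binds there.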

How the data were processed

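Mural granulosa cell RNA of 6 mice was sequenced as stranded total RNA, and the study's methods and the submitters' notes give cutadapt for trimming, TopHat with TopHat-Fusion for mapping (GRCm38) and CIRCexplorer for calling back splices. The values used are raw counts that the authors deposited for each junction: back-splice reads and a linear count per library. For the linear count, the way of counting is not given in the sources read. Groups were taken from the sample titles. The 36 other columns per sample of a further table (normalized, raw and regularized log values), and the authors' own fold changes and p-values, were not used.

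Counts were tested with edgeR 4.0.16 (quasi-likelihood, TMM, two-sided) in R 4.3.3, over all abundant circRNA, all genes by summed circular reads, all genes by linear count (the junction with the highest linear total stands for the gene) and, for the ratio, the interaction over 12 columns where both columns of a mouse enter as separate samples. CPM are scaled by TMM; library sizes of circular counts were 119094 to 156625 at 4-h post-hCG and 128354 to 163145 at 0-h, over junctions that name a gene. Low counts were removed by filterByExpr, and p-values were adjusted over all features of a fit. DESeq2 1.42.0, other size factors, filters and library sizes, blocks and leaving out each mouse were alternatives. Exons came from the reference annotation of the same build. The same tests were also run on counts simulated from the finished fits, and those results are not given here.

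Members, lists and tests were chosen with earlier results of these data known. Genes were named by rule: abundant or called members, those with the most circular or linear counts of each family, the 4 uncalled members of each family with the most linear counts and up to 4 called genes of each partner list; other members, markers and uncalled partners that are named were chosen after their values were seen.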

Additional observations from a re-analysis of the deposited data

Results flagged for a closer look

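At junctions of member genes that the authors did not type as circRNA, which no comparison above used, 4 genes with at least 30 such reads had more back-splice reads, relative to library size, in every 4-h post-hCG library than in any 0-h library, with no test made. Pcdh10 had 80 such reads at 4-h post-hCG (21, 45 and 14) and 2 at 0-h (2, 0 and 0). Robo2 had 99 at 4-h post-hCG (47, 24 and 28) and 15 at 0-h (5, 4 and 6). Sema3c had 115 at 4-h post-hCG and 70 at 0-h. Ptprg had 65 at 4-h post-hCG and 56 at 0-h, a difference that the scaling to library size brings out. Only rises were flagged by this rule, and other members fell. Plxnc1 had 38, 23 and 16 such reads at 4-h post-hCG and 64, 66 and 47 at 0-h. Sema3g had 5, 11 and 9 at 4-h post-hCG and 33, 29 and 32 at 0-h. The share of all genes that pass the rule was not computed.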

How the results depend on the processing

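Replicate numbers of the titles belong to different mice and did not pair the samples: deviations of same-numbered libraries correlated at 0.0201, -0.126 and -0.0114 for linear counts and 0.0723, -0.00577 and 0.0433 for summed circular reads. With the replicate number as a block, 0 circRNA, 1 gene by summed circular reads (Sema3c), 17 by linear RNA and 2 by ratio were called, the ratio call on Ptpra being lost, and the summed circular change of Plxnc1 was 0.01.

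The count of 1 gene by summed circular reads became 0 with DESeq2, 0 with no filter and 0 to 1 when a mouse was left out. The 17 linear calls were the same genes under DESeq2 and its size factors, became 19 with no filter and 14 to 19 when a mouse was left out (Epha3, Sema3d and Ptprt were lost, and Cdh2, Plxna4, Ptprd and Ptprj gained, in some of these), and stayed at 17 with the mean linear count, with Plxna4 in place of Ptprt. The 3 ratio calls became 4 with DESeq2, 2 with the mouse as a block or the mean linear count (each without Ptpra) and 1 to 3 when a mouse was left out. The 0 calls on circRNA held under all the alternatives tried for them.

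Among the named genes, changes of sign were limited to values that were not called. Sema5a linear RNA was -0.0021 with DESeq2 and with its size factors and -0.02 with the mean linear count, under which Fat1 was 0.07. Leaving out a mouse in turn gave log2 fold changes on both sides of 0 for the Plxnc1 circRNA of exons 2 to 4 (-0.05 to 0.32), exons 5 to 9 (-0.75 to 0.38), exons 7 to 9 (-0.34 to 0.33) and exons 22 to 23 (-0.08 to 0.49) and the Sema5a circRNA of exons 6 to 8 (-0.59 to 0.27). The same held for summed circular reads of Plxnc1 (-0.19 to 0.18), Sema5a (-0.17 to 0.16) and Ptprg (-0.82 to 0.03), for linear RNA of Sema5a (-0.02 to 0.03), Fat1 (-0.15 to 0.11) and Plxna1 (-0.09 to 0.02) and for the ratio of Sema3c (-0.22 to 0.13) and Sema5a (-0.17 to 0.19). The causes of these changes were not tested.

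Depth set the limits of the circular results: 12 of 367 member circRNA and 6 of 49 genes passed the limits on low reads of the circular tests. With no filter, 0 of the 367 circRNA were called. Linear counts exist only for genes with a circRNA, and they repeat between junctions of a gene. There were 3 mice in each group.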
